A study of Mus musculus with 7 samples.

Results

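The Cyp3a cluster on mouse chromosome 5 was examined for islands of H3K27me3 in the livers of adult male mice. The members were all islands that overlapped the 1 Mb of chromosome 5 from 146.1 to 147.1 Mb in the genome build mm9, a window that holds Cyp3a11 near 146.66 Mb and its neighbours Cyp3a16, Cyp3a41a, Cyp3a44 and Cyp3a25. There were 12 such islands among the 122262 in the 7 lists, and they merged into 3 regions of the 17394 in the genome.

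H3K27me3 is the trimethylation of lysine 27 on histone H3. Polycomb repressive complex PRC2 writes it over genes that are kept silent, often as broad domains. The Cyp3a genes encode cytochrome P450 enzymes of the endoplasmic reticulum that oxidise drugs, steroids and bile acids. Cyp3a11 is the main member in adult mouse liver and is induced through the nuclear receptors CAR and PXR, whereas Cyp3a16 is known from fetal and newborn liver and Cyp3a41 and Cyp3a44 from adult female liver. Cyp3a25 is expressed in liver and intestine.

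The TCPOBOP group was 4 male CD-1 mice given TCPOBOP, a ligand of mouse CAR, at 3 mg/kg. The vehicle group was 3 male CD-1 mice given corn oil with 1% DMSO. All mice were 7 weeks old wild types of this outbred stock, and each list came from the liver of 1 animal taken after 27 h. Whole liver holds several cell types, so a mark in few cells and a weak mark in all cells cannot be told apart. The lists held 16481 to 20550 islands with TCPOBOP and 14167 to 17852 with vehicle, and they gave no read counts, so the depth is unknown. The annotation used here is of a later build, GRCm38.p6. It served for gene names, gene order and promoter sequences, and not to place islands. No gene other than Cyp3a11 could therefore be placed against an island, and the labelled tissue could not be checked against liver genes.

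In that annotation the cluster has 11 Cyp3a genes, 8 protein-coding and 3 pseudogenes. They follow each other as Cyp3a57, Cyp3a16, Cyp3a58-ps, Cyp3a41b, Cyp3a63-ps, Cyp3a41a, Cyp3a44, Cyp3a11, Cyp3a25, Cyp3a59 and Cyp3a60-ps. The 250 bases before the start of each of the 5 named genes, from RefSeq in build GRCm38.p6, are shown because they show how alike the copies are. Their positions are chr5:145879855-145880104 (- strand) for Cyp3a11, chr5:146009619-146009868 (- strand) for Cyp3a25, chr5:145469724-145469973 (- strand) for Cyp3a16, chr5:145805875-145806124 (- strand) for Cyp3a44 and chr5:145720137-145720386 (- strand) for Cyp3a41a, and these are not on the scale of the mm9 positions of the islands. Each sequence runs 5′ to 3′ on the strand of its gene, and capitals mark AGGTCA or its reverse complement TGACCT, the half-site that nuclear receptors such as CAR and PXR bind.
Cyp3a11: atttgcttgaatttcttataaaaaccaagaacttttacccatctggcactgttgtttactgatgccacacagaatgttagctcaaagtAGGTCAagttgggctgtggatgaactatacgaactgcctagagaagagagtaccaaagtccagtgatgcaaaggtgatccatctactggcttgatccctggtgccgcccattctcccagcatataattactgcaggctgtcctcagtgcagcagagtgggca
Cyp3a25: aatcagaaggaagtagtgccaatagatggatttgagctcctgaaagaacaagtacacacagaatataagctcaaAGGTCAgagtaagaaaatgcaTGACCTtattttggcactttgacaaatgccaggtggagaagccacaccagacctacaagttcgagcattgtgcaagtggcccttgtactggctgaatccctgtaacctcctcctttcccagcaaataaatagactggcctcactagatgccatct
Cyp3a16: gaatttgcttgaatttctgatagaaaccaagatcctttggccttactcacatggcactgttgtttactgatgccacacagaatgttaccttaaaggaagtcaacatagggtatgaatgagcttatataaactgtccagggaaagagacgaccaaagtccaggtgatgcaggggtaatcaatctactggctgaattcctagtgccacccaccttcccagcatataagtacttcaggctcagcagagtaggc
Cyp3a44: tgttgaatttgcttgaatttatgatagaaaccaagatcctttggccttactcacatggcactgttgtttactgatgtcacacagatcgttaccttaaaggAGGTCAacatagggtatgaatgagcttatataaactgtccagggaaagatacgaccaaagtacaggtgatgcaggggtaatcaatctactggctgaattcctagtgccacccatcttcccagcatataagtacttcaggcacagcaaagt
Cyp3a41a: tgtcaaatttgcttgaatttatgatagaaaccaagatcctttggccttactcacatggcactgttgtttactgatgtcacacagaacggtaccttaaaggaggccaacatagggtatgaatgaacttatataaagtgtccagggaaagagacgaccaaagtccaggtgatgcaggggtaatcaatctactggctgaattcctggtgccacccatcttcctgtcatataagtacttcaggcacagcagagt

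The promoters fell into 2 kinds by sequence. Those of Cyp3a11, Cyp3a16, Cyp3a41a, Cyp3a41b and Cyp3a44 were 72.5 to 99.6% identical over 10 pairs, counted over the columns of a global alignment. Within this kind Cyp3a11 stood apart: pairs with it were at 72.5 to 76.6% and pairs among the rest at 91.3 to 99.6%. Those of Cyp3a25, Cyp3a57 and Cyp3a59 were 88.9 to 94.8% identical over 3 pairs. Between these kinds, which were grouped after their identities had been seen, the range was 52.7 to 57.4% over 15 pairs. Cyp3a41a and Cyp3a41b differed at 1 of 250 bases. How reads that match several copies were treated was not given in the sources used here, and its part in where islands were listed was not tested.

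All 8 Cyp3a promoters were poor in CG, the dinucleotide whose dense clusters are the best known seats of Polycomb domains at mammalian promoters. They held 0 to 2 CG in 250 bases, with 2 in Cyp3a11, Cyp3a44 and Cyp3a41a and 1 in Cyp3a25 and Cyp3a16. Over the promoters of 27018 genes the median was 6, and 29.6% had 2 or fewer. The half-site, searched as AGGTCA on both strands, was found once in Cyp3a11, 162 bases before the start, and once in Cyp3a44, 150 bases before it. Cyp3a25 held it on each strand, beginning 176 and 155 bases before the start, and Cyp3a57 and Cyp3a59 also had 2. Of all promoters 13.8% held at least 1 and 1.31% at least 2. In a list of 12 other genes of the CAR and PXR pathway, among them the receptors themselves, Cyp2b10 and Cyp3a13, 2 promoters held the half-site and 8 had 2 or fewer CG. A match is a string of letters and was not tested for binding.

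Nearly the whole window was free of H3K27me3 islands, with TCPOBOP as with vehicle. Of the 1 Mb, 955.2 kb (95.5%) had no island in any of the 7 livers. An unbroken stretch from 146221601 to 147121600, 900.0 kb long, had no island in any list, and the position of Cyp3a11 lay 438.4 kb inside its start and 461.6 kb before its end. No liver of 7 had an island at that position or within 5 kb of it. The other stretches free in all livers within the window were much shorter, with 28.0 kb from 146100001 to 146128000, 36.0 kb from 146153601 to 146189600 and 12.8 kb from 146197601 to 146210400. The first of these was the end of a free stretch of 284.4 kb that began at 145843601.

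**Figure D1:**
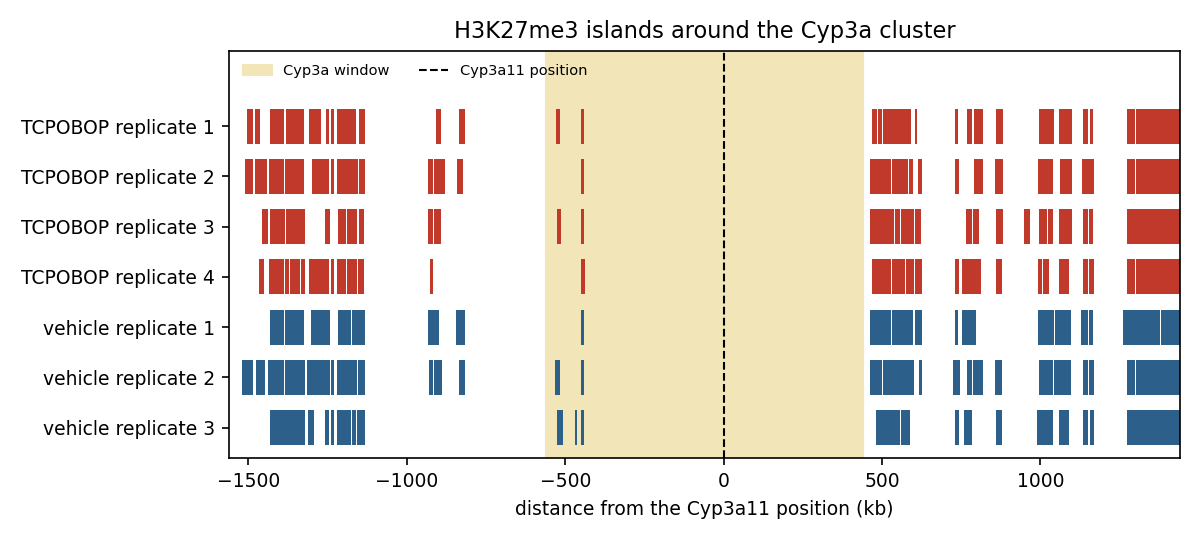
Islands of each liver over 3 Mb of chromosome 5, with TCPOBOP livers in red above vehicle livers in blue and distance from the position of Cyp3a11 in kb on the horizontal axis. The shaded window holds 12 islands, all more than 438 kb before Cyp3a11, while islands are dense on both flanks. The flank before the window ends in a stretch free of islands.

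The stretch around Cyp3a11 had nearly the same ends in every liver. Single lists had it at 908.8, 902.0, 902.8 and 908.0 kb in TCPOBOP replicates 1 to 4 and at 903.2, 901.2 and 920.4 kb in vehicle replicates 1 to 3. The groups overlapped, and vehicle replicate 3 had the longest stretch, which ran to 147140800. Means were 905 ± 3.49 kb with TCPOBOP (SD, n = 4) and 908 ± 10.6 kb with vehicle (SD, n = 3). Such lengths were uncommon but not extreme: between 1.26 and 2.37% of the gaps between neighbouring islands on the autosomes of the same list were longer. Of 17322 autosomal stretches free in all 7 livers, whose median length was 20.8 kb, 200 were longer, and on chromosome 5 the count was 15 of 999.

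Islands lay only in the first 122 kb of the window, and each of the tiles of 100 kb from 146300001 on had 0 livers with an island. The length under islands was 19.6, 10.0, 22.4 and 11.2 kb in TCPOBOP replicates 1 to 4 and 9.6, 24.8 and 38.0 kb in vehicle replicates 1 to 3. The groups overlapped: vehicle replicate 1 had the least and vehicle replicates 2 and 3 the most. The list of vehicle replicate 1 also had the fewest islands, 14167, and its lowest score was 100.7, against 66.6 to 79.4 in the other lists. Its total island length, 586.8 Mb, lay within the 537.2 to 604.6 Mb of the other lists. The means were 15.8 ± 6.13 kb with TCPOBOP (SD, n = 4) and 24.1 ± 14.2 kb with vehicle (SD, n = 3). The difference, TCPOBOP minus vehicle as in all that follow, was -8.33 kb and was within the spread between livers (95% interval -28.0 to 12.8 kb, two-sided exact permutation p = 0.371; the smallest p for 4 against 3 livers is 0.0286). Vehicle replicate 3 held most of it, since without that liver the difference was -1.40 kb. Without vehicle replicate 1 it was -15.6 kb (two-sided exact permutation p = 0.133), and without the 25% of each list with the lowest scores it was -1.63 kb. With a liver left out this test cannot give a p under 0.05. The number of islands was 2, 1, 2 and 1 with TCPOBOP and 1, 2 and 3 with vehicle, a difference of -0.5 (95% interval -2.0 to 1.0, two-sided exact permutation p = 0.657). It was 0 without vehicle replicate 3 and -1.0 without vehicle replicate 1.

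**Figure D2:**
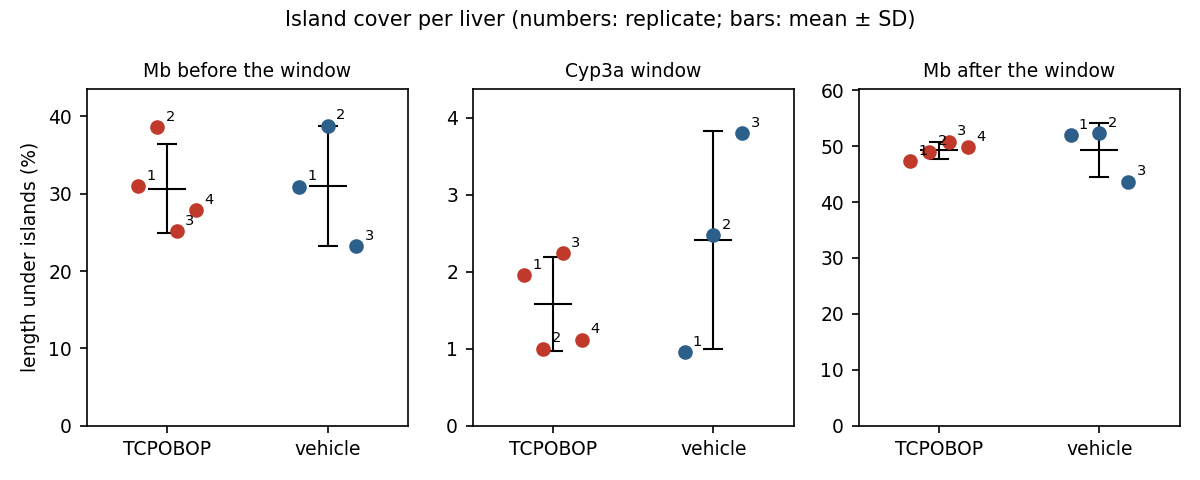
Percent of length under islands in the Cyp3a window (middle) and in the Mb before and after it, each point being 1 liver with its replicate number and the bars the mean and SD; the vertical axes differ between panels. The window reached at most 3.8% in any liver, whereas both flanks were at 23.2% or above in all livers, and the groups overlap in each panel.

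Both flanks held islands, though the free stretch at the start of the window reached back to 145843601. At the other end the stretch free in all livers ended at 147121600. Mean cover over the 7 livers was 1.94% in the window, against 30.8% in the Mb before it and 49.3% in the Mb after it. Each liver had this order, with 0.96 to 3.8% in the window, 23.2 to 38.8% before it and 43.6 to 52.3% after it. The window ranked low among 2415 autosomal tiles of 1 Mb, of which 342 (14.2%) had a lower mean cover and 156 had none, while the median tile had 19.5%. On chromosome 5, 24 of 150 tiles were lower. The flanks of the groups overlapped too. The Mb before was 30.7 ± 5.79% covered with TCPOBOP (SD, n = 4) and 31.0 ± 7.80% with vehicle (SD, n = 3), and the Mb after 49.2 ± 1.45% with TCPOBOP and 49.3 ± 4.91% with vehicle. Fitted with limma over all 2240 tiles of 1 Mb tested, the difference was -0.833 percentage points in the window (SE 0.933, adjusted p = 1). It was -0.303 (SE 4.43, adjusted p = 1) in the Mb before and -0.0767 (SE 2.93, adjusted p = 1) in the Mb after. Of all tiles 0% had an adjusted p under 0.05 and 1.07% an unadjusted p under 0.05. The absolute difference of the window was larger than that of 30.6% of tiles, whose median was 1.48 points.

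**Figure D3:**
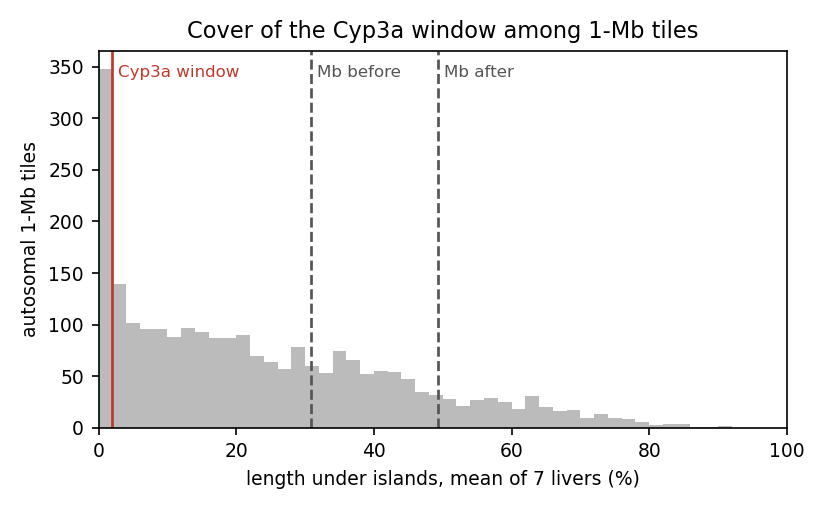
Number of autosomal tiles of 1 Mb by the percent of their length under islands, averaged over the 7 livers. The Cyp3a window (red line, 1.94%) lies at the low end, and the adjoining tiles (dashed lines, 30.8% and 49.3%) lie above the median of 19.5%.

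One narrow island was listed in every liver. This rested on islands of low score: without the 25% of each list with the lowest scores it was kept in 2 of 4 TCPOBOP livers (replicates 2 and 4) and 0 of 3 vehicle livers. By score the island stood at percentile 25.02 in TCPOBOP replicate 2 and 24.5 in TCPOBOP replicate 3, so that split hung on the exact cut. With the islands of lowest score dropped until no list exceeded the total length of the shortest, it was kept in 3 of 4 TCPOBOP and 2 of 3 vehicle livers, and lost in TCPOBOP replicate 1 and vehicle replicate 3. The island lay about 440 kb before Cyp3a11, and its merged extent was 11.2 kb, from 146210401 to 146221600. It was 10.0, 10.0, 10.0 and 11.2 kb wide in TCPOBOP replicates 1 to 4 and 9.6, 10.0 and 9.2 kb in vehicle replicates 1 to 3. The groups met at 10.0 kb, so the widths of TCPOBOP livers were at or above those of vehicle livers. Means were 10.3 ± 0.6 kb with TCPOBOP (SD, n = 4) and 9.6 ± 0.4 kb with vehicle (SD, n = 3). As a share of the merged region the difference was 6.25 percentage points (SE 5.31, limma adjusted p = 1, unadjusted p = 0.244), and without TCPOBOP replicate 4 it was 3.57. It was 47.3 points without those 25% (limma adjusted p = 1.00) and 11.3 points with equal total length (limma adjusted p = 1).

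The edges of this island were close to fixed. It began at 146210401 in 6 livers and at 146211201 in vehicle replicate 3, a range of 800 bp or 2 of the windows of 400 bp in which islands were built. It ended at 146220400 in 5 livers, at 146220000 in vehicle replicate 1 and at 146221600 in TCPOBOP replicate 4, a range of 1600 bp. Regions with an island in all 7 livers made up 38.1% of merged regions, and this was 1 of the 3 in the window. Only 17 of those 6624 regions (0.257%) were no wider than 11.2 kb, and their median width was 68.0 kb. Of 84 regions between 8 and 16 kb wide with a single island in each of the 7 livers, 7 (8.33%) had ends that varied as little, and the median range was 2.0 kb at either end.

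The shared island lay in the lower part of its list by total score and in the upper part by score per window. Scores are those the authors deposited, and since they grow with width and depth they were ranked only within a list. It was 74.1, 106, 102.4 and 131 in TCPOBOP replicates 1 to 4 and 122, 87.2 and 88.2 in vehicle replicates 1 to 3. By score the island stood at the percentiles 10.0, 25.02, 24.5 and 42.5 of the TCPOBOP lists and 18.2, 12.2 and 9.76 of the vehicle lists. By width it stood between the percentiles 3.89 and 7.14 with TCPOBOP and 0.713 and 5.56 with vehicle. By score per window it stood between 62.1 and 87.5 with TCPOBOP and between 61.0 and 95.5 with vehicle, ranked against islands of all widths. The island had to reach the lowest score of its list in few windows. How far its width set its place by this measure was not tested. Among the islands 8 to 12 kb wide of the same list it had no set place, with score percentiles of 30.1, 61.8, 67.6 and 85.9 in TCPOBOP replicates 1 to 4 and 57.5, 33.9 and 32.3 in vehicle replicates 1 to 3. These ranges overlapped between the groups.

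**Figure D4:**
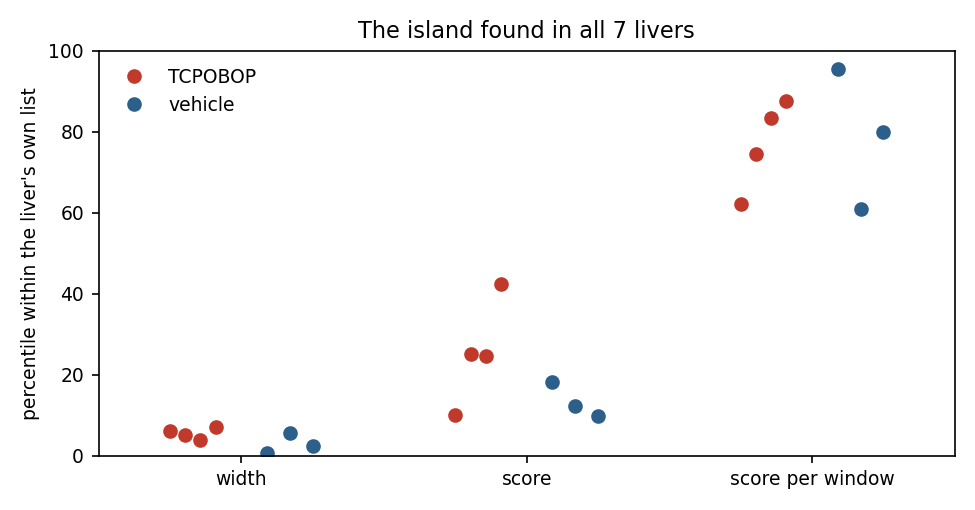
Percentile of the island found in all 7 livers within the list of its own liver, by width, by score and by score per window, with TCPOBOP livers in red and vehicle livers in blue. Widths lie at 7.14 or below, scores at 42.5 or below and scores per window at 61.0 or above. A narrow island must reach the lowest score of its list in few windows. How far width set the score per window was not tested.

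A second region, from 146128001 to 146153600, was listed in 2 of 4 TCPOBOP and 2 of 3 vehicle livers. The island was 9.6 kb in TCPOBOP replicate 1, 12.4 kb in TCPOBOP replicate 3, 14.8 kb in vehicle replicate 2 and 20.8 kb in vehicle replicate 3, and the other livers had none. Livers with and without it occurred in both groups. Of the 4 islands listed here, 3 scored below 100.7, the lowest score in the list of vehicle replicate 1. For TCPOBOP replicates 2 and 4, which also lacked the region, this held for 0 of 4. Scores grow with depth, and whether the cutoff of a list left the region out was not tested. Islands covered 21.5% of the 25.6 kb with TCPOBOP and 46.4% with vehicle on average, and the difference of -24.9 percentage points was smaller than its error (SE 32.1, limma adjusted p = 1, unadjusted p = 0.442). Without vehicle replicate 3 it was -7.42 points, and without vehicle replicate 1 it was -48.0. By score these islands stood at the percentiles 21.2 and 12.7 of the TCPOBOP lists and 4.40 and 31.8 of the vehicle lists, and without the 25% with the lowest scores the region was kept in 0 of 4 TCPOBOP and 1 of 3 vehicle livers (replicate 3).

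The third region was an island of 8.0 kb in vehicle replicate 3, from 146189601 to 146197600. Its score of 81.7 was close to the lowest of that list, 79.4, and stood at its percentile 2.76. Being listed in 1 liver, it was not among the regions tested.

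No region or tile of the cluster passed the test between treatments. Of the 3 regions 2 were tested and 0 had an adjusted p under 0.05 (limma), as in 0% of the 13988 regions tested over the genome, and 0 of the 2 had an unadjusted p under 0.05, against 3.87% of all. Of the 10 tiles of 100 kb, 2 held islands in at least 2 livers and were tested, and 0 passed with an adjusted or an unadjusted p, against 0% and 3.7% of 14388 tiles. In the tile from 146100001 to 146200000 cover was 5.5 ± 6.45% with TCPOBOP (SD, n = 4) and 14.5 ± 14.4% with vehicle (SD, n = 3), a difference of -9.03 points (SE 7.34, limma adjusted p = 1.00, unadjusted p = 0.256). In the next tile it was 10.3 ± 0.6% with TCPOBOP and 9.6 ± 0.4% with vehicle, a difference of 0.7 points (SE 3.67, limma adjusted p = 1.00). Every SE given is that of limma, which borrows variance from all features fitted. In the tile from 146200001 it exceeded the SDs of both groups. In the tile from 146100001 it lay between them. A p above the threshold does not show that the groups were alike. Islands show only where the mark passed the caller's threshold, so a change of weaker signal over Cyp3a11 or its neighbours could not be seen.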

How the data were processed

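Chromatin of 7 single livers was immunoprecipitated with an antibody to H3K27me3 and sequenced. Per the submitters' processing notes, Bowtie2 2.3.2, SICER 1.1 and build mm9 were used. SICER joins windows rich in reads into islands. The deposited lists gave each island's position and score, 1 list per liver, with no pooling and no counts of reads; per their names, the window was 400 bp, gaps of up to 2400 bp were bridged and the E-value was 100. Input control, duplicate reads and depth were not given in the sources used here.

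From the lists, the length under islands was computed for the window, for regions merged where islands of any liver overlapped or touched, and for tiles of 100 kb and 1 Mb of the whole genome, from the first to the last island of each chromosome. Window values were compared with two-sided exact permutation tests over 35 groupings, intervals by inverting the test, and fractions of regions and tiles with limma 3.58.1 (R 4.3.3; trend and robust variance; features with islands in at least 2 livers and unequal values; Benjamini-Hochberg adjustment over all tested; threshold 0.05). The limma script was tested on simulated data with shifts far larger than the noise, which gives no measure of power in these data. Promoters were aligned with Biopython 1.88. Python 3.11.15 and NumPy 2.4.6 were used. The cluster, the gene lists and the settings were chosen with earlier results of these data known. The named items were all regions overlapping the window, free stretches and the Cyp3a genes of the cluster.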

Additional observations from a re-analysis of the deposited data

Results flagged for a closer look

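In the TCPOBOP group 10 measures were examined for a single liver apart from the rest, and 1 was found. Chance gives this in about 1 of 20 where values are not tied. The island found in all 7 livers was 11.2 kb wide in TCPOBOP replicate 4 and 10.0 kb in each of the other TCPOBOP livers, a difference of 3 windows of 400 bp. Since the other TCPOBOP widths were equal, any other width in replicate 4 would have been flagged. The flag therefore does not show how unusual that width was. In vehicle livers the island was 9.6, 10.0 and 9.2 kb wide.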

How the results depend on the processing

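The difference in window cover stayed negative in 11 alternatives. It passed the exact test in none, but with a liver left out or with blocks no p under 0.05 was possible, so those alternatives show only its size. As a tile of 1 Mb the window passed limma in none of 11. The difference in the number of islands turned to 0.167 when the 25% of each list with the lowest scores was left out; that step leaves 0 or 1 island per liver. When each liver was left out in turn it ran from -1.0 to 0. The regions and tiles of the window kept a count of 0 calls in 13 alternatives each. Over the genome, limma without trend and robust variance called 13 regions, none of them in the window. Without vehicle replicate 2, limma gave 125 of 2225 tiles of 1 Mb an unadjusted p under 0.05, and 0 an adjusted one. Without any other single liver, 16 to 74 tiles had such an unadjusted p. The island-free length of 955.2 kb became 976.8 kb when free in at least 6 livers was enough, 968.0 kb without those 25% and 942.4 kb for stretches of at least 20 kb. With the replicate number as a block over replicates 1 to 3, the difference in window cover was -6.8 kb (exact sign-flip p = 0.5, where the smallest possible is 0.25), and no call changed. Deviations of same-numbered livers correlated at 0.0753, 0.384 and 0.110 over tiles of 100 kb, and those of differently numbered livers at -0.228 to 0.134. The value for replicates 2 was the highest of all pairs. Both replicates 2 also had a total island length of 537.2 Mb, against 582.8 to 604.6 Mb in the other lists. The numbers were not read as pairs, since the labels do not say that they pair livers, and these values do not settle whether they do. Cover of genes other than at the position of Cyp3a11 was not computed, since no annotation of build mm9 was used. The depth behind each list is unknown.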
